A study of Mus musculus with 8 samples.

Results

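Among the stretches of chromatin listed as carrying acetylated lysine 27 of histone H3 (H3K27ac) in EnPGC-1-treated CD8+ T cells, a small group is far wider than the rest. They were chosen by their width alone, as the distinct intervals of the EnPGC-1 peak list on chromosomes 1 to 19 that span 3 kb or more, 1317 of 247434 intervals (0.532%). The data are H3K27ac ChIP-seq of C57BL/6 mouse CD8+ T cells from lymph node and spleen, stimulated with antibodies to CD3 and CD28. The cells were kept for 48 h with EnPGC-1, which the labels class among PIPs, or with the vehicle DMSO, with 2 H3K27ac samples per treatment. Input DNA and IgG samples were also sequenced and were not used here directly. Whether any of them served as the control in calling the intervals was not given. The labels give neither the age and sex of the mice nor whether samples came from separate animals. Each treatment has 1 deposited list of intervals (mm10), so no value per sample, no spread between replicates and no test between treatments could be had. Bracketed ranges are 95% exact binomial (Clopper-Pearson) intervals. They cover counting error only, and neighbouring intervals are not independent. The sequencing depth behind either list is unknown, and depth, enrichment and the control used can all change how wide an interval is called.

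H3K27ac is written by acetyltransferases such as p300 and CBP, is removed by histone deacetylases, and marks active promoters and enhancers. A peak caller draws an interval where the signal is above its threshold, and it lists a summit for each local maximum inside. A wide interval is a stretch called as 1 interval, which need not be unbroken signal. The shortest gap between intervals was 283 bp in the EnPGC-1 list, and whether shorter breaks in the signal were joined was not tested. Wide H3K27ac stretches are known from clusters of enhancers near genes of cell identity and from the promoters of highly transcribed genes. Width is what chose these intervals, so their width, summit count and score are given as descriptions only. Their coverage by the DMSO list and their place relative to genes played no part in the choice.

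The sequences that follow are examples of small RNA genes and gene starts found inside broad intervals. They do not stand for the broad intervals in general, most of which held neither. An annotated miRNA hairpin lay in 23 broad intervals, and a start in 155 of the 1299 examined for starts. The relation of broad intervals to gene starts, gene ends and small RNA genes is described afterwards. The first set holds mature miRNAs whose hairpins lie inside broad intervals, from RefSeq (build GRCm38.p6, whose coordinates are those of mm10), with the seed, bases 2 to 8, in capitals.
miR-26a-5p: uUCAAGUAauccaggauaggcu
miR-324-5p: cGCAUCCCcuagggcauuggugu
miR-183-5p: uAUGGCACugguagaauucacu
miR-96-5p: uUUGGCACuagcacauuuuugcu
miR-203-3p: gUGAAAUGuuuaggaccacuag
miR-130b-3p: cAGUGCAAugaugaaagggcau
miR-192-5p: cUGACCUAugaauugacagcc
miR-194-5p: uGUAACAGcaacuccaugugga
The miR-183 and miR-96 hairpins share 1 broad interval, as do the miR-192 and miR-194-2 hairpins. The 8 seeds printed here differ from one another.

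The second set holds the 250 bases upstream of 6 transcription starts that lie inside a broad interval, from the same RefSeq build, written 5′ to 3′ on the gene's strand with CpG dinucleotides in capitals. They were chosen after their values were seen. Runx3, Acadvl and Cebpa belong to the gene lists described below, Sap25 lies in 1 of the widest intervals, and Dnajb8 and Lsm7 lie in intervals with no DMSO coverage.
Runx3: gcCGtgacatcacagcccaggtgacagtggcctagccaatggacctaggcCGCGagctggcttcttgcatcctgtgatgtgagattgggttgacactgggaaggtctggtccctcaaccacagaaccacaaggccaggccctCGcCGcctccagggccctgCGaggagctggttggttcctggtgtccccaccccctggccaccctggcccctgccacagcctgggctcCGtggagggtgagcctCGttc
Acadvl: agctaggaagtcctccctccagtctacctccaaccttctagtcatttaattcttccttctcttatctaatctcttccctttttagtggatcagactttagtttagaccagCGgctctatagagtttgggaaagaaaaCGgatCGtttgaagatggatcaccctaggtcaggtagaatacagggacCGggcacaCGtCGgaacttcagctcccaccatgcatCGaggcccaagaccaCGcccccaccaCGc
Cebpa: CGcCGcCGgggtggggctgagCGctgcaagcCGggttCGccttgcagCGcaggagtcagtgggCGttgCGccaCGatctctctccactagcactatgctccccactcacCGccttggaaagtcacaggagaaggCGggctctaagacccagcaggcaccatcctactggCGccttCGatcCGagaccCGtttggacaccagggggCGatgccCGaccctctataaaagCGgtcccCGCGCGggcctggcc
Sap25: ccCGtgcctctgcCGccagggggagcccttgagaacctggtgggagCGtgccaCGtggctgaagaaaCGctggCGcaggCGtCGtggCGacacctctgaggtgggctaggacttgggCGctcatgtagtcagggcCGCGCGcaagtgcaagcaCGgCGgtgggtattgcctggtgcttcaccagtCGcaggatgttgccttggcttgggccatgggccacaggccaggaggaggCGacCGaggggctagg
Dnajb8: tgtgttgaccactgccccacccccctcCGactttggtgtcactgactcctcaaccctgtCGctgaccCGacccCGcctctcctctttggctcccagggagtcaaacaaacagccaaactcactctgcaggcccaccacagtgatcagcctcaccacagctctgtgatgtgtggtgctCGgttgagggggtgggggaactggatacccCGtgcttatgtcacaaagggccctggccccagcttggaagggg
Lsm7: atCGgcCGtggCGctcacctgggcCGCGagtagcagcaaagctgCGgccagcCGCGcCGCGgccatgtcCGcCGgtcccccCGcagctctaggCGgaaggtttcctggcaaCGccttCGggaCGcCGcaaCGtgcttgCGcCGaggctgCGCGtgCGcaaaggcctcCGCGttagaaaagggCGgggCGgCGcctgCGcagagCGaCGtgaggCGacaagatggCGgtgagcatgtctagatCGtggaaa
On mm10 these windows are chr4:135120395-135120644 (plus strand), chr11:70015429-70015678 (minus), chr7:35119043-35119292 (plus), chr5:137641223-137641472 (plus), chr6:88222018-88222267 (plus) and chr10:80855157-80855406 (minus). They hold 8, 9, 22, 18, 6 and 35 CpG dinucleotides in that order. The Acadvl window lies almost wholly outside its broad interval, which ends 10 bases upstream of the start and runs 4276 bases downstream. A DMSO interval lay over none of these 6 starts.

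The broad intervals had a median width of 3533 bp, with quartiles of 3208 and 4083 bp and a maximum of 10535 bp. The median of all EnPGC-1 intervals was 501 bp. They covered 5.02 Mb, 3.10% of all bases in the EnPGC-1 list, and 107 of them reached 5 kb. The deposited list repeats an interval once per summit, and the broad intervals had a median of 6 such entries, from 1 to 17. All but 3 had more than 1. Per kb of interval there were 1.54 summits, against 1.58 in intervals of 1 to 2 kb and 1.54 in those of 2 to 3 kb. The highest score per interval was read as a −log10 q-value. Its median was 5.67 in the broad intervals, 5.12 in those of 2 to 3 kb and 3.64 in all EnPGC-1 intervals.

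The 12 widest intervals outside chromosome 18 lay mostly within gene bodies. The widest, chr15:86126710-86137244, spanned 10535 bp inside Gramd4, a gene linked to apoptosis, with 14 summits. DMSO intervals covered 39.4% of it. The next 2 were 10459 bp at Rbm38 (chr2:173025469-173035927), which encodes an RNA-binding protein of the p53 response, and 10366 bp at Ttc28 (chr5:111268391-111278756). Their DMSO coverage was 21.8% and 27.5%. An interval of 9912 bp lay in Gse1 (chr8:120545606-120555517), whose product is found in histone deacetylase corepressor complexes, and 32.2% of it was covered by 5 DMSO intervals. The asparaginase gene Aspg held 9485 bp (chr12:112115015-112124499) with 35.4% covered by 6 DMSO intervals, the highest number found under a broad interval. The most summits, 17, were in an interval of 9227 bp over Lrch4, Sap25 and the insulin receptor substrate gene Irs3 (chr5:137635499-137644725). Sap25 encodes a protein of the SIN3 corepressor complex. The lowest DMSO coverage among these 12 was 4.00%, at Myo15b and the DNA helicase gene Recql5 (chr11:115888836-115897239, 8404 bp). An interval of 6979 bp over Aebp1 and the DNA polymerase subunit gene Pold2 was among the 5 with most summits, with 15, and 13.8% of it was covered. The other wide intervals lay over Arl6ip4 and Pitpnm2 (8727 bp), Prrc2b (8217 bp), the serine protease gene Htra3 (7954 bp) and the transcriptional regulator gene Rai1 (7715 bp), with DMSO coverage of 16.7%, 39.4%, 14.4% and 13.3%. Only 1 of the 12 lay over no gene. It spanned 7505 bp on chromosome 7 (chr7:12010488-12017992), 23306 bp from the vomeronasal receptor gene Vmn1r77, and 67.5% of it was covered by DMSO intervals.

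**Figure D1:**
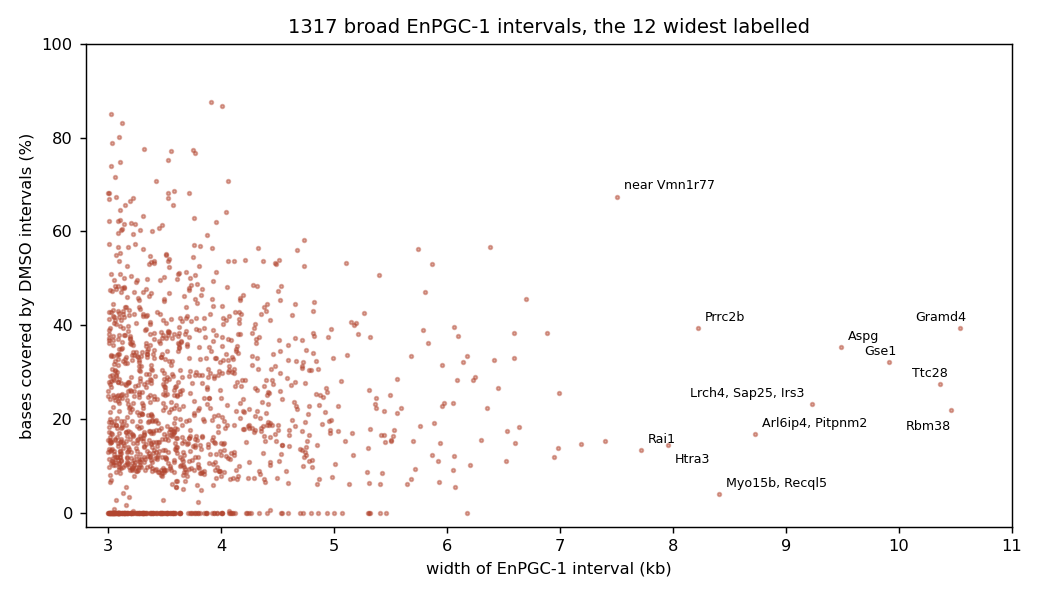
Width in kb (horizontal) and percent of bases covered by DMSO intervals (vertical) of each of the 1317 broad EnPGC-1 intervals, 1 point per interval, with the genes under the 12 widest outside chromosome 18. Most points lie between 3 and 5 kb, the 186 intervals with no DMSO coverage form the row at 0, and no interval exceeds 87.6%.

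The narrowest broad intervals were 4 of 3001 bp, in Sipa1l2 and in Pip5k1c, which encodes a phosphoinositide kinase, Alox5ap, a gene of leukotriene synthesis, and Coro1a, an actin regulator gene of leukocytes. DMSO coverage was 24.9% in Sipa1l2, 15.4% in Pip5k1c, 0% in Alox5ap and 26% in Coro1a. The 3 widest intervals left out fell 1 bp short of 3 kb and lay in Hoxb6, Mgll and Pde2a, with 6.20%, 26.8% and 38.8%.

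DMSO intervals lay under most broad EnPGC-1 intervals but covered only a minority of their bases. Of the 1317, 1131 overlapped a DMSO interval by at least 1 bp (85.9%, 83.9 to 87.7), against 23.2% of all EnPGC-1 intervals. A wider interval meets more DMSO intervals through its length alone, so covered bases are the fairer measure. DMSO intervals covered a median of 19.7% of a broad interval, with quartiles of 10.71% and 34.44%. Over all their bases pooled, 23.3% of the broad intervals was covered, against 15.5% of all EnPGC-1 intervals and 1.69% of the chromosomes between their first and last intervals. The number of DMSO intervals per length differed less. Counted by their centres, there were 3.56 per 10 kb of broad interval, 3.39 at 2 to 3 kb and 3.13 in all EnPGC-1 intervals. Coverage of 50% or more was reached by 100 broad intervals (7.59%, 6.22 to 9.16), against 13.5% of all EnPGC-1 intervals, and 75% by 11. The share at 50% also depends on width. The median DMSO interval was 432 bp wide, so 1 of them can cover 50% of a narrow interval but seldom of a broad one. A single DMSO interval lay under 553 of them, 2 under 413, 3 under 134, and 4 or more under 31.

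Coverage by the DMSO list was higher in wider EnPGC-1 intervals and also higher around them. Pooled coverage was 10.8% in intervals under 500 bp, 15.3% from 500 bp to 1 kb, 18.7% at 1 to 2 kb, 21.0% at 2 to 3 kb, 22.9% at 3 to 4 kb, 24.3% at 4 to 5 kb and 23.2% at 5 kb or more. In the 5 kb on each side, the same classes had 3.59%, 5.01%, 7.59%, 10.5%, 11.7%, 13.1% and 14.4%. The ratio of inside to flank was 1.91 for the broad intervals, 2.01 for those of 2 to 3 kb and 2.99 for those under 500 bp. Other EnPGC-1 intervals covered 39.3% of the flanks of broad intervals, 34.3% of those of intervals of 2 to 3 kb and 16.9% of those of all EnPGC-1 intervals. Both lists were thus denser around broad intervals than around EnPGC-1 intervals in general. The same held for intervals of 2 to 3 kb.

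**Figure D2:**
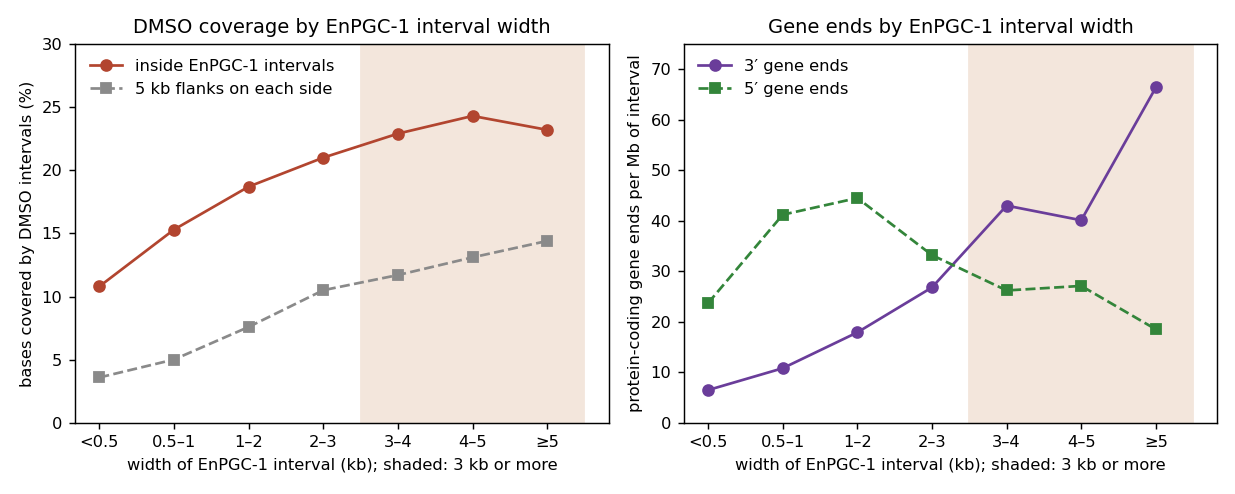
Left, percent of bases covered by DMSO intervals inside EnPGC-1 intervals (circles) and in the 5 kb on each side (squares) by interval width in kb. Right, 3′ and 5′ ends of protein-coding gene bodies per Mb of EnPGC-1 interval by width, where 3′ ends go up to 66.4 per Mb in intervals of 5 kb or more while 5′ ends are highest, at 44.5 per Mb, at 1 to 2 kb.

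Within the broad intervals DMSO coverage was spread along the whole width. It was 23.8% at the centre, 24.4% at 1000 bp to the left and 24.7% at 1000 bp to the right, and 11.5% and 11.2% at 5000 bp on either side. At 20000 bp it was still 9.73% and 10.3%, against 3.52% and 3.55% at the same distances from intervals under 500 bp.

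**Figure D3:**
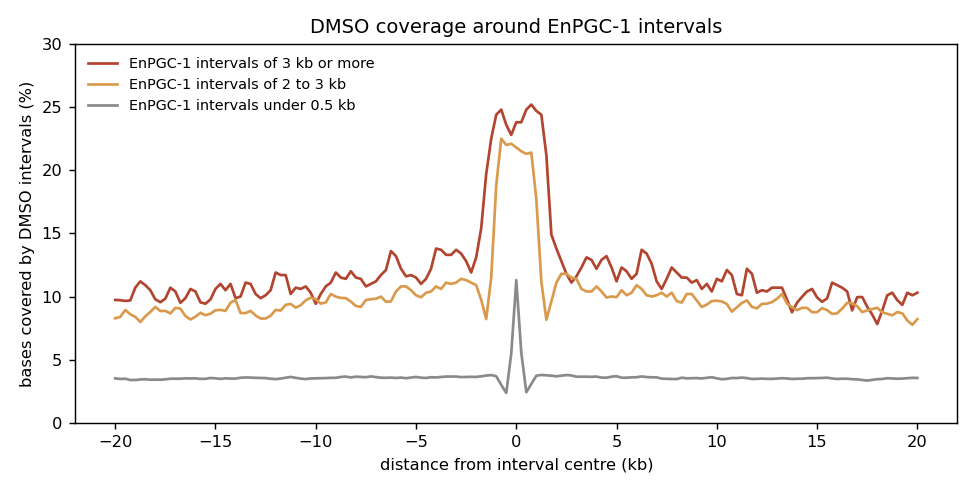
Percent of bases covered by DMSO intervals (vertical) in steps of 250 bp by distance in kb from the centre of EnPGC-1 intervals (horizontal), for 3 width classes. The curve of the broad intervals reaches 25.2% inside and stays between 7.82% and 12.2% from 10 kb outwards, whereas that of intervals under 500 bp lies between 3.34% and 3.63% there.

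The DMSO intervals under broad EnPGC-1 intervals were somewhat wider than other DMSO intervals, with the same median score. The 1910 DMSO intervals that overlapped a broad interval had a median width of 550 bp and a median score of 2.16. Those that overlapped only narrower EnPGC-1 intervals had 454 bp and 2.16, and those that overlapped none had 380 bp and 2.16. The DMSO list held far fewer wide intervals: 4 on chromosomes 1 to 19 reached 3 kb, and its maximum was 3554 bp. Of these 4, the interval in Gse1 (chr8:120498331-120501879, 3549 bp) lay almost wholly, to 96.4%, in a broad EnPGC-1 interval. The other 3, over Mroh2a and Hjurp, over Zbtb17 and over Fmnl3, lay in narrower EnPGC-1 intervals, which covered 83.1%, 89.5% and 68.7% of them. When the 1317 widest DMSO intervals were taken, all of at least 1264 bp, 1288 of them (97.8%) overlapped some EnPGC-1 interval, but 153 (11.6%) overlapped a broad one, which amounts to 149 of the broad intervals (11.3%). Of all 79842 DMSO intervals, 73.7% overlapped some EnPGC-1 interval and 2.39% a broad one. The widest DMSO intervals thus met broad intervals more often than DMSO intervals in general, but most of them lay in EnPGC-1 intervals under 3 kb.

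Broad intervals with no DMSO interval under them numbered 186 (14.1%, 12.3 to 16.1). The widest were 6177 bp in Tmem119, known as a marker of microglia (chr5:113791363-113797539), 5461 bp in Elfn2 (chr15:78669973-78675433) and 5402 bp in the centromere protein gene Cenpm (chr15:82231640-82237041). After them came 5321 bp in Rbfox3, which encodes the neuronal splicing factor NeuN (chr11:118537432-118542752), 5305 bp in the circadian clock gene Per1 (chr11:69104587-69109891) and 5297 bp over Dnajb8, a chaperone gene of testis (chr6:88220579-88225875). The 186 had a median width of 3373.5 bp and a median score of 5.30, against 3587 bp and 5.81 for the 1031 intervals covered in part but under 50%. DMSO coverage in their 5 kb flanks was 11%, against 12.1% around those covered in part and 14.9% around the 100 covered by 50% or more. The DMSO list thus had intervals near them, though none over them.

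At the other end, 6 broad intervals outside chromosome 18 led in DMSO coverage. Gse1 had 87.6% of 3907 bp covered (chr8:120497845-120501751) and Sfi1, a gene of centrosome duplication, 86.8% of 4012 bp (chr11:3131830-3135841). Sun2, a gene of the nuclear envelope, had 85.1% of 3025 bp covered. An interval of 3124 bp lay beside, but not over, the water channel gene Aqp5 and was covered to 83.2%. Gcn1, which encodes an activator of the amino acid sensing kinase GCN2, had 80.1% of 3097 bp covered, and the deubiquitinase gene Usp42 had 78.9% of 3037 bp.

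A pair of broad intervals stood far above the rest in score. The interval chr17:39843004-39846531 scored 540.68 and lay over Rn18s-rs5, annotated as related to the 18S ribosomal RNA gene, whose sequence is present in the genome in many copies. A DMSO interval under it scored 168.72, and 75.2% of it was covered. The interval in Sfi1, which also lay over the annotated gene Pisd-ps1, scored 244.39, and a DMSO interval under it scored 135.19. Both of these intervals thus scored high in both lists. The next highest were 16.64 over Phospho1 and Abi3, 13.54 in the actin regulator gene Coro1c and 12.43 in an interval 88211 bp from Vmn1r2, and 21 broad intervals in all reached 10. Without the 2 highest, 23.2% of the bases of the remaining 1315 were covered by DMSO intervals and the median score was 5.65.

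Broad EnPGC-1 intervals lay over genes more often than EnPGC-1 intervals in general. A protein-coding gene body lay under 1186 of the 1317 (90.1%, 88.3 to 91.6), against 57.7% of all EnPGC-1 intervals. The share was 52.0% in intervals under 500 bp and 82.3% at 2 to 3 kb, and a wider interval also meets a gene more easily. Of the broad intervals, 879 (66.7%) lay wholly inside a gene body, 1069 lay over 1 gene, 112 over 2 and 5 over 3. Of the 131 over no protein-coding gene, 41 lay over another annotated gene and 90 over none. These 90 lay at a median of 21.5 kb from the nearest protein-coding gene, and at most 328 kb. In all, 1063 of 20665 protein-coding genes (5.14%) had a broad interval over their body. Their median length was 25.2 kb, against 17.5 kb for all protein-coding genes. The share with a broad interval was 2.06% for genes under 5 kb, between 5.08% and 5.81% for genes of 5 to 50 kb, 7.46% at 50 to 100 kb, 7.09% at 100 to 200 kb and 5.61% for genes of 200 kb or more.

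Most broad intervals held no transcription start. A start of the RefSeq promoter table lay inside 155 of 1299 broad intervals (11.9%, 10.2 to 13.8), with chromosome 18 not used, against 2.86% of all EnPGC-1 intervals. Counted per Mb of interval, broad intervals held 37.9 starts, fewer than the 49.4 of all EnPGC-1 intervals and the 62.3 of those of 1 to 2 kb. Neither measure is free of width. The share with a start was 1.07% under 500 bp and 13.3% at 5 kb or more, where there were 24.7 starts per Mb. The 155 intervals held 188 starts of 165 genes. They extended a median of 2381 bases downstream of the start and 1232.5 bases upstream, and 128 of the 188 (68.1%) had more bases downstream. A DMSO interval lay over 50 of these 188 starts (26.6%, 20.4 to 33.5), against 22.6% (21.7 to 23.6) of starts in narrower EnPGC-1 intervals, 7.88% of starts in none and 13.6% of all starts.

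The promoter windows in broad intervals were rich in G and C. In the window from 250 bases before to 50 after the start, the median G and C content was 62.3%, against 59.7% for starts in narrower EnPGC-1 intervals and 52.7% for starts in none. The ratio of observed to expected CpG was 0.63, 0.66 and 0.48 in the same order. The GC box GGGCGG was found on either strand in 58.0% of them, against 56.7% for starts in narrower EnPGC-1 intervals and 47.0% of all windows. TATAAA was found in 5.85%, against 7.3% and 12.7% in the same order, and CCAAT in 31.9%, against 36.1% and 38.1%. The shares were thus nearer to those of narrower EnPGC-1 intervals than to those of all windows. Of the 6 windows printed above, the 250 bases of Lsm7 hold GGGCGG, 2 times.

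The ends of genes were more frequent in broad intervals than their beginnings. Per Mb, broad intervals held 45.4 3′ ends and 25.4 5′ ends of protein-coding gene bodies, 225 and 126 in number. Over all EnPGC-1 intervals the order was the opposite, with 13.5 3′ ends and 36.1 5′ ends per Mb. The density of 3′ ends was 6.48 per Mb in intervals under 500 bp, 10.8 from 500 bp to 1 kb, 17.9 at 1 to 2 kb, 26.8 at 2 to 3 kb, 43.0 at 3 to 4 kb, 40.1 at 4 to 5 kb and 66.4 at 5 kb or more. The last class rests on 43 ends. Of the 1299 broad intervals, 149 held a 3′ end and no 5′ end, 80 a 5′ end and no 3′ end, 36 both and 1034 neither. In the DMSO list, which had no part in choosing these intervals, 3′ ends were likewise denser in wider intervals, at 11.3 per Mb under 500 bp, 18 from 500 bp to 1 kb and 24.0 at 1 to 2 kb. In these DMSO classes 5′ ends were more frequent than 3′ ends, at 44.7, 55.3 and 54.4 per Mb. The same held for EnPGC-1 intervals of these widths, with 23.7, 41.2 and 44.5 5′ ends per Mb. DMSO intervals of 2000 bp or more held only 7 5′ ends and 5 3′ ends, too few to compare with the broad EnPGC-1 intervals. Of the 1317 widest DMSO intervals, 1291 lay outside chromosome 18 and held 99 5′ ends and 53 3′ ends. Per Mb these were 49.8 and 26.6, so 5′ ends were more frequent there, unlike in broad EnPGC-1 intervals. The median width of those 1317 was 1448 bp, so they are narrower than the broad intervals.

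Inside gene bodies, the centres of broad intervals leaned towards the 3′ side. Among 932 broad-interval positions in genes of known strand, 329 (35.3%, 32.2 to 38.5) fell in the last stretch of the gene body, from 80 to 100% of its length, and 103 (11.1%, 9.11 to 13.2) in the stretch from 0 to 20%. For all EnPGC-1 intervals these shares were 23.4% and 21.2%, and for those of 2 to 3 kb they were 30.1% and 18.7%.

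**Figure D4:**
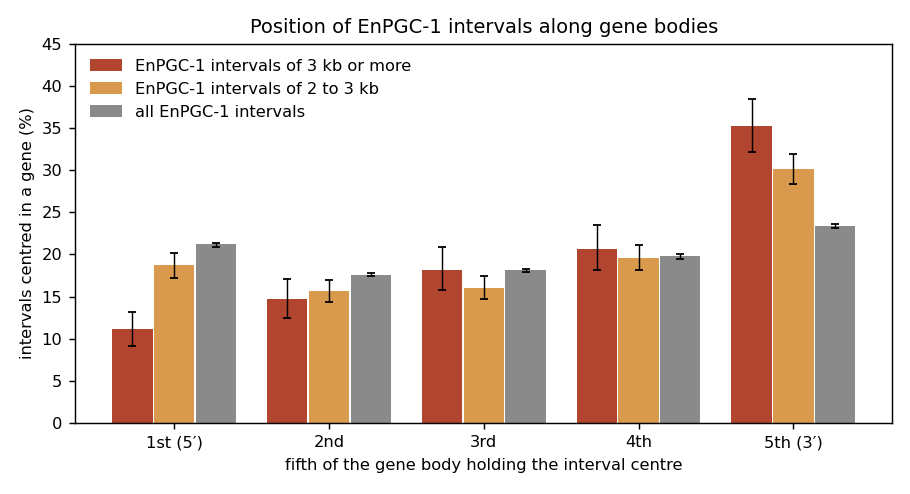
Share of EnPGC-1 intervals centred in a gene (vertical, percent) that fall in each of 5 equal stretches of the gene body from the 5′ to the 3′ end (horizontal), for broad intervals, intervals of 2 to 3 kb and all intervals, with 95% exact binomial ranges as bars. Broad intervals have 35.3% in the stretch nearest the 3′ end and 11.1% in that nearest the 5′ end.

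Several long genes held many broad intervals. Gse1 (chr8:120228501-120581383) held 10, of 3081 to 9912 bp, which made up 12.1% of the gene. In all, 165 EnPGC-1 intervals covered 58.1% of Gse1 and 94 DMSO intervals covered 16.4%, and 2 of the 10 broad intervals had no DMSO coverage. Rbfox3 (chr11:118489760-118911597) had 8 over it, of 3322 to 5940 bp, of which 4 had no DMSO coverage, and the 8 together were covered to 10.5%. The interval of 5940 bp (chr11:118484806-118490745) also lay over Engase and was mostly beyond the 3′ end of Rbfox3. The next widest there was 5321 bp. In Rbfox3 189 EnPGC-1 intervals covered 42.8% of the gene and 91 DMSO intervals 13.7%. Rbm19 (chr5:120116513-120198971), a gene of ribosome biogenesis, was the densest of these, with 7 broad intervals over 36.8% of its 82.5 kb. EnPGC-1 intervals covered 70.6% of Rbm19 and DMSO intervals 20.1%. Macrod1, which encodes an ADP-ribose hydrolase, and the inositol phosphate kinase gene Itpk1 held 5 each. Pitpnm2 and the cadherin gene Celsr1 held 4 each. In these genes DMSO intervals covered between 10.5% (Rbfox3) and 25% (Rbm19) of the bases of the broad intervals. At least 2 broad intervals lay over 163 genes and at least 4 over 16.

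**Figure D5:**
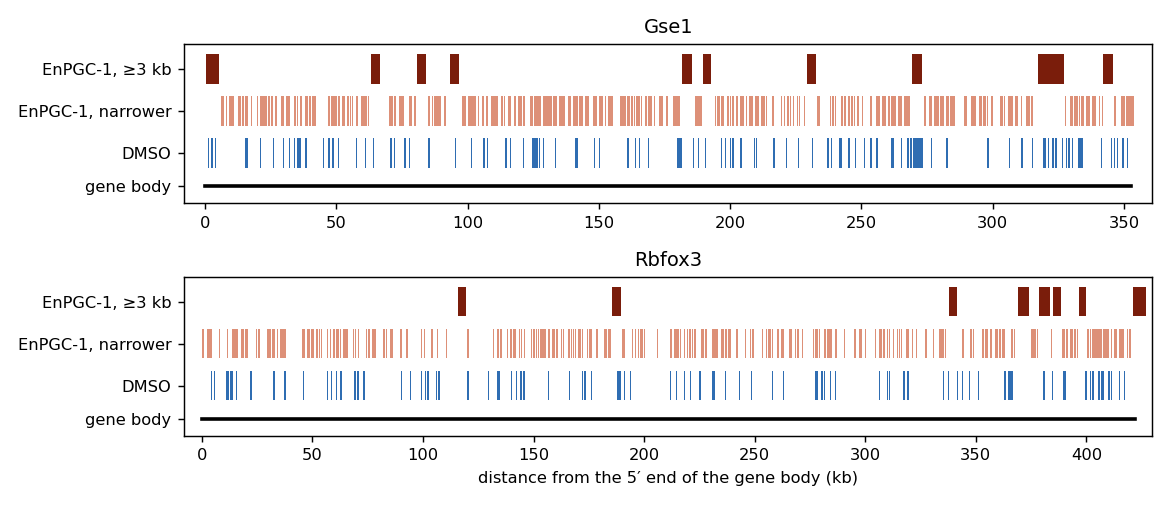
Intervals along Gse1 (top) and Rbfox3 (bottom) by distance in kb from the 5′ end of the gene body, with EnPGC-1 intervals of 3 kb or more, narrower EnPGC-1 intervals and DMSO intervals in separate rows above the gene body. The 10 broad intervals of Gse1 lie along the whole gene, whereas 6 of the 8 over Rbfox3 lie towards its 3′ end, the widest of them mostly beyond it. Both genes are densely marked in both lists.

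Broad intervals were clustered along the genome. The nearest other broad interval lay at a median of 51105 bp, 654 (49.7%) had one within 50 kb and 278 (21.1%) within 10 kb. Of 2469 bins of 1 Mb, 448 held a broad interval and 17 held at least 10, which together had 218 broad intervals (16.6%). The fullest bins were chromosome 8 from 122 to 123 Mb with 18, over Zfpm1, Piezo1, Cbfa2t3 and other genes, chromosome 12 from 112 to 113 Mb with 17, over Aspg, Akt1 and Inf2 among others, and chromosome 8 from 120 to 121 Mb with 17. The last holds Gse1 and Irf8, and 17 broad intervals lay between the outer ends of Gse1 and Foxl1. Between Camta1 and Ajap1 on chromosome 4 there were 13, with a median DMSO coverage of 28.1%, and within 100 kb of Sbno2 on chromosome 10 there were 3. Chromosomes 2, 4, 5, 8, 11 and 15 held 57.3% of the broad intervals but 41.1% of all EnPGC-1 intervals. The share of a chromosome's EnPGC-1 intervals that were broad ran from 0.138% on chromosome 3 to 0.951% on chromosome 15. Across the 19 chromosomes this share went with the number of protein-coding genes per Mb (Spearman's rho 0.61, Pearson's r 0.44), as a description over chromosomes that share 1 library set. A median of 20 protein-coding genes were centred within 500 kb of a broad interval, against 17 for those of 2 to 3 kb and 11 for all EnPGC-1 intervals.

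Broad intervals lay over a few genes of the T cell programme, at a share near that of all genes. Over 5 lists of T cell genes, 7 of 105 (6.67%) had a broad interval over the gene body, against the 5.14% of all protein-coding genes, and the listed genes are also longer, with a median of 25.3 kb against 17.5 kb. Runx3, whose product silences Cd4 in CD8 T cells, held 3. The widest spanned 5739 bp (chr4:135168201-135173939) with 56.3% DMSO coverage, another 3944 bp with 14.8%, and the interval over its start 4119 bp (chr4:135117961-135122079) with none. Tcf7, which encodes the memory regulator TCF-1, held 1 of 4083 bp (chr11:52258509-52262591) with 11.4%. Among activation genes were Nfatc1, Nfatc2 (3438 bp, 19.2%) and the IL-2 receptor beta chain gene Il2rb (3762 bp, 20.9%). The IL-12 receptor gene Il12rb1 (3905 bp, 12.4%) was the only one of 21 effector genes. None of 13 memory and naive genes and none of 14 exhaustion and inhibitory receptor genes had one. The T cell markers Cd3e, Cd3d, Cd3g, Cd8a, Cd8b1, Lck, Zap70 and Thy1 all had an EnPGC-1 interval within 1 kb of the gene body. Of these 8 markers, 5 had a DMSO interval there. None had a broad interval there, against 5.43% of all protein-coding genes, and 8 genes are too few to set against that share. Of all protein-coding genes, 83.9% had an EnPGC-1 interval there and 65.3% a DMSO interval, and most markers of other cell types did too. In the EnPGC-1 list these were 5 of 6 B cell, 5 of 5 myeloid, 3 of 3 CD4 and regulatory T cell, 4 of 4 neuronal, 4 of 4 muscle and 2 of 3 liver markers. In the DMSO list they were 4, 3, 3, 2, 3 and 1 in the same order. Neither of 2 NK cell markers had an interval in either list, and of 3 erythroid markers 1 had an EnPGC-1 interval and none a DMSO interval.

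Genes of mitochondrial biogenesis and metabolism were under broad intervals in a few cases. Over the PGC-1 network, fatty acid oxidation and oxidative phosphorylation, 6 of 80 genes (7.5%) had one, against the 5.14% of all protein-coding genes. The mitochondrial RNA polymerase gene Polrmt held 2, of 5445 bp (chr10:79735034-79740478, shared with Hcn2) and 3274 bp, with DMSO coverage of 21.8% and 25.8%. The nuclear receptor genes Rxrb (4289 bp, shared with Col11a2) and Ppard (3276 bp) had 39.3% and 11.4%. Acadvl, the very long chain acyl-CoA dehydrogenase gene, held 1 of 4287 bp (chr11:70011152-70015438) with 17.3%. Ndufs7, a complex I subunit gene, held 4605 bp with 17.5%, and Cox4i1, a subunit gene of cytochrome c oxidase, 4005 bp with no DMSO coverage. Ppargc1a and Ppargc1b had none. Among glycolysis genes the glucose transporter gene Slc2a1 held 3406 bp with 24.9%, 1 of 15 genes. Of the histone acetylation machinery 3 of 23 genes did, among them the deacetylase genes Sirt2 (4350 bp, 18.2%) and Hdac5 (3527 bp, 38.4%).

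Genes known from other tissues were present as well. Pax5, the B cell identity factor gene, held 4305 bp (chr4:44555279-44559583) with 37.0% DMSO coverage, and Cebpa, the myeloid factor gene, 3367 bp over its start (chr7:35117653-35121019) with 40.3%. They were the only genes with a broad interval among 10 B cell and 10 myeloid genes. Rbfox3 and the glutamate receptor gene Grin1 (3198 bp, 21.5%) made 2 of 10 neuronal genes, and these are long genes with a median of 194 kb. None of 10 muscle and none of 10 liver genes had a broad interval. Over all 15 lists 21 of 273 genes (7.69%) had one, against 5.14% of all protein-coding genes. The listed genes were also longer, with a median of 22.5 kb against 17.5 kb. Lists of 10 genes are too short to set against the share of all genes.

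Broad intervals also held small RNA genes. Of 919 annotated miRNA hairpins on chromosomes 1 to 19, 27 (2.94%) lay in 23 broad intervals, and 368 lay in some EnPGC-1 interval. DMSO intervals covered part of each of the 23 broad intervals but lay over 10 of the 27 hairpins. The miR-26a-1 hairpin lay in an interval of 5374 bp in Ctdspl (chr9:119031605-119036978), with 22.4% DMSO coverage, and miR-324 lay in the Acadvl interval. The miR-183 and miR-96 hairpins, a cluster known from sensory organs and lymphocytes, lay in an interval of 3086 bp over no protein-coding gene (chr6:30166769-30169854) with 27.8%. The miR-192 and miR-194-2 hairpins lay in 4733 bp over Atg2a (chr19:6261351-6266083) with 58.2%. The miR-203 hairpin, known from skin, lay in 3930 bp with 44.0% on chromosome 12 (chr12:112129990-112133919), close to the widest interval of Aspg. The miR-130b and miR-301b hairpins shared 3190 bp with 36.2%.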

How the data were processed

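The series holds 8 ChIP-seq samples in all, with 2 H3K27ac samples per treatment and the rest input DNA or IgG. The values used are 1 deposited list of intervals per treatment on mm10, per the submitters' processing notes. The tools these notes name are MACS2 2.2.2.20160309, Bowtie 1.1.2, ChIPseeker 11.16.1, Trimmomatic 0.38 and Picard 0.118. The parameters, the control and any pooling of samples were not given in the sources used here. The deposited score was read as a −log10 q-value, inferred from the lowest score of 1.31 in both lists, since the −log10 of 0.05 is 1.30. It only describes or filters intervals within 1 list. The depth of the samples is unknown.

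The 329623 EnPGC-1 and 84538 DMSO entries of the lists, deposited with 1 line per summit, were combined into 253423 and 81522 distinct intervals. Intervals of 3 kb or more on chromosomes 1 to 19 were taken. Covered bases, overlaps of at least 1 bp and counts were computed in Python 3.11.15 with pandas 2.3.3, numpy 2.4.6 and scipy 1.17.1, and tested on simulated data, where 0 of 200 lists differed from a base-by-base count. Genes came from RefSeq GRCm38.p6. Strand and starts came from its promoter table, which matched 16457 of 20665 protein-coding genes and holds none of chromosome 18. Coordinates are 1-based.

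The members, gene lists and alternatives were chosen with earlier results of these data known. Genes named are those at the 12 widest intervals, the 5 with most summits, the 5 highest-scoring, the 6 widest without DMSO coverage and the 6 with most, the 8 genes with most broad intervals, and up to 3 genes of each list with the widest intervals, outside chromosome 18, plus 3 intervals on each side of the width limit, and Sipa1l2, which ties with them. The miRNAs, printed sequences, genes of the fullest bins and the DMSO counts of gene ends were chosen after values were seen. Some genes that this rule names are not reported here.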

Additional observations from a re-analysis of the deposited data

How the results depend on the processing

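No paired analysis was possible because each treatment has 1 list and no value per sample, and for the same reason no replicate could be left out. Of 48 alternative values, 18 stayed within the counting range of the reported value, or within 1.5 times for counts, and 30 moved. Width limits of 2000, 2500, 4000 and 5000 bp gave 5785, 2668, 370 and 107 intervals, of which 72.0%, 79.4%, 91.6% and 93.5% overlapped a DMSO interval and 84.1%, 87.7%, 93.5% and 96.3% lay over a protein-coding gene. Median summits were 4, 5, 7 and 9. The median DMSO coverage moved to 18.4% at 2000 bp and 22.1% at 4000 bp, and the share holding a transcription start to 10.1% at 2000 bp. Joining EnPGC-1 intervals within 1000 bp gave 13457 intervals of 3 kb or more, and joining DMSO intervals within 1000 bp gave a median coverage of 22.3%. Joining within 200 bp had no effect, because the shortest gap between intervals was 283 bp in the EnPGC-1 list and 294 bp in the DMSO list. DMSO intervals at or above their median score gave a median coverage of 12.2% and an overlap of 65.0%. Requiring 10%, 25% or 50% of the interval to be covered gave 76.6%, 41.8% and 7.59%. With 5000 bp on each side of genes 92.2% lay over a gene, and over any annotated gene 93.2% did. With 1000 and 5000 bp added to the interval, 15.3% and 28.1% held a start. The cause was not tested. Keeping only as many highest-scoring EnPGC-1 intervals as the DMSO list holds left 1196 broad intervals. Leaving out the 2 highest-scoring intervals, chosen after seeing the data, moved none of the 6 results beyond these limits. Depth, which is unknown, limits every statement on width.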
